A study of Mus musculus with 3 samples.

Results

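The collagen and laminin genes were described in the cells of mouse brain with and without breast cancer metastases, and in blood. All genes of the 3 expression matrices whose symbol is Col, a number, a and a number, or Lam, then a, b or c, and a digit, were taken as members. This gave 51 of 19039 genes, of which 40 code for collagen chains and 11 for laminin chains. The naive brain matrix listed 47 of them, the matrix of the brain with metastases all 51, and the blood matrix 44.

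The study used CITE-seq, in which messenger RNA and antibody-tagged surface proteins are read from the same droplet, on 1 pool of 8 samples marked by hashing antibodies. All mice were females of 2 to 3 months that carried Cx3cr1CreERT, a tamoxifen-inducible Cre at the Cx3cr1 locus. The control mice carried this allele alone. The depleted mice were Cx3cr1CreERT-ROSA-iDTR, in which Cre switches on a diphtheria toxin receptor. Both arms received tamoxifen, a pause of one month and then diphtheria toxin, so the controls share the Cre allele, the tamoxifen and the toxin. Metastases came from E0771, a mouse mammary carcinoma cell line, injected into the carotid artery about 2 weeks earlier. All mice were on the C57Bl/6 background. Each brain sample came from 1 hemisphere, from which immune cells were concentrated by density centrifugation, and the submitters state that some microglia remained after depletion.

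Collagens are triple helices of 3 alpha chains. Fibrillar types I, III and V form the interstitial fibres laid down by fibroblasts, type IV forms the sheet of basement membranes, and type VI forms beaded filaments around cells. Laminins are trimers of an alpha, a beta and a gamma chain and build the other main network of the basement membrane. In the brain, endothelial cells, pericytes, smooth muscle cells and fibroblasts of the vessel wall and meninges are the known main sources, while most of the parenchyma holds little fibrillar collagen.

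The matrices held 2653 cells of naive brain, 5933 cells of brain with metastases and 2924 cells of blood. A level here is the summed corrected molecule count of a gene in a group of cells per 10000 summed corrected molecules of all genes, written CP10k. The corrected total per cell ran from 9243 to 19073 in the brain with metastases, from 6589 to 14321 in the naive brain and from 3428 to 9141 in blood. The authors' correction scales every cell of a matrix toward 1 depth, so levels in different matrices are set side by side only as values. Each arm of a tissue was 1 hashed sample and the brain with metastases could not be split by arm, so no comparison had replicates and none was tested. Intervals on shares of cells are exact (Clopper-Pearson) 95% intervals and cover counting error only. Some cell barcodes were listed in more than 1 matrix: 518 in naive brain and brain with metastases, 578 in brain with metastases and blood, 339 in naive brain and blood, and 84 in all 3.

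The cells of the brain with metastases were clustered without the member genes and named from marker lists, giving 12 classes. The tumour-like class (1161 cells) had 3 clusters and met 3 of the 9 listed tumour markers in the matrix, Krt8, Rhox5 and Wfdc2, with Krt8 at 5.56 CP10k. The other 6, Krt18, Krt7, Krt19, Epcam, Cldn3 and Cdh1, stood between 0.000608 and 0.0432 CP10k in it. The other vessel and barrier classes were endothelial-like (526 cells), mural-like (214 cells), fibroblast-like (118 cells) and choroid or ependymal-like (84 cells). Mural cells are the pericytes and smooth muscle cells that wrap vessels. The mural-like class also held endothelial genes, with Cldn5 at 23.2 CP10k and Flt1 at 14.8, against 42.8 and 27.6 in endothelial-like cells. The part of endothelial RNA in the mural-like values, here and below, was not tested. The immune classes were microglia-like (697 cells), monocyte or macrophage-like (968 cells), dendritic-like (153 cells), neutrophil-like (236 cells), T cell-like (750 cells), NK cell-like (338 cells) and B cell-like (122 cells). A further 566 cells in 3 clusters stayed unnamed. Shared barcodes made up 15.8% of the tumour-like, 8.94% of the endothelial-like, 8.41% of the mural-like, 11.02% of the fibroblast-like and 29.1% of the microglia-like cells.

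Of the 51 members, 28 reached 0.5 CP10k in at least 1 class, here called measured. A class was said to lead a gene when its level was at least 2-fold over the next class, with 0.1 CP10k added to both. By this rule 15 of the 28 measured members were led by a class, while over all genes 1898 of 6918 measured genes were (27.4%). The fibroblast-like class led 9 members (background 3.95%), the tumour-like class Col5a3 and Col6a3 (background 9.4%), the endothelial-like class Col13a1 (1.89%), the mural-like class Lamc3 (2.36%), the choroid or ependymal-like class Col9a3 (3.66%) and the microglia-like class Col27a1 (2.01%). No member was led by the monocyte or macrophage-like (background 0.737%), dendritic-like (0.434%), neutrophil-like (1.63%), T cell-like (0.347%), NK cell-like (0.506%) or B cell-like class (0.52%). Col13a1 and Lamc3 lay just past the rule, at log2 ratios of 1.02 and 1.05 over fibroblast-like cells. The lead of the endothelial-like class in Col13a1 was lost without shared barcodes and with each cell weighed the same. The other 23 members stayed under 0.5 CP10k in every class, among them Col2a1, Col4a3, Col4a4, Col4a5, Col4a6, Col6a4, Col6a6, Col7a1, Col9a2, Col10a1, Col11a2, Col15a1, Col17a1, Col19a1, Col20a1, Col23a1, Col25a1, Col26a1, Col28a1, Lama1, Lama3 and Lamb3.

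**Figure D1:**
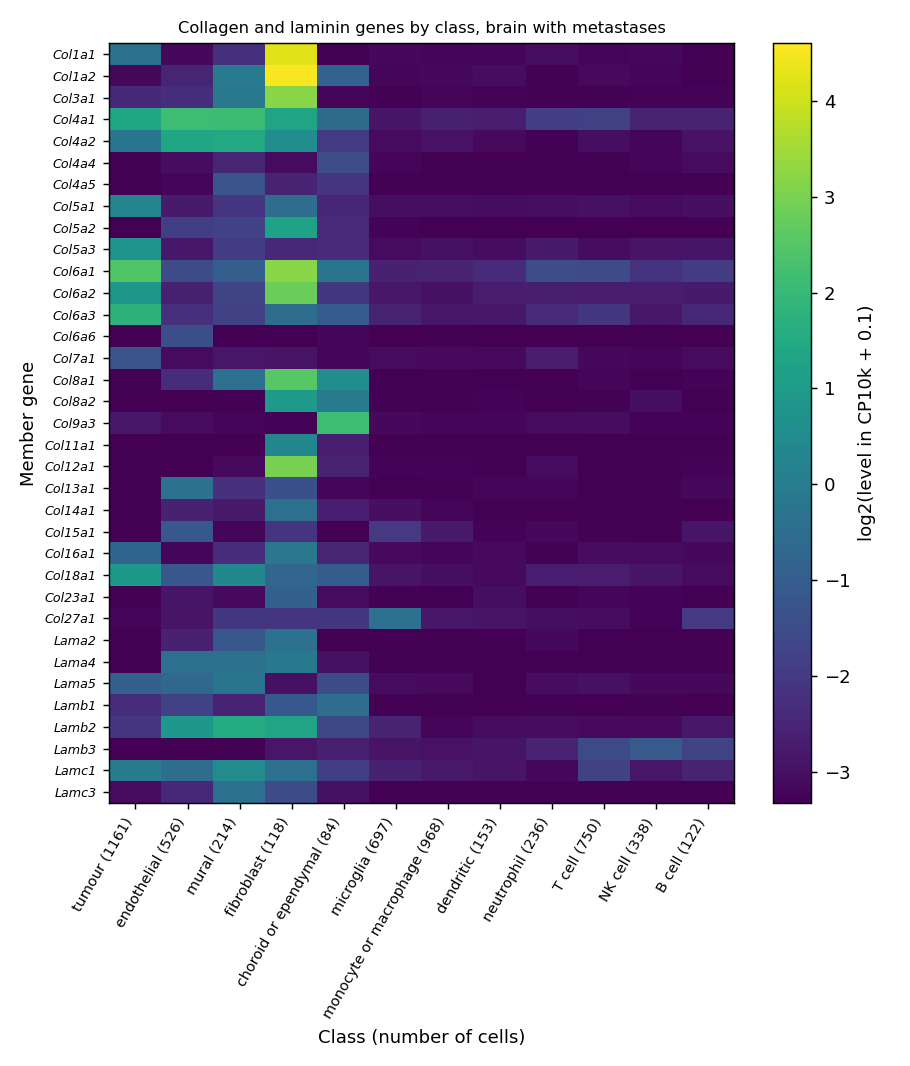
Level of 35 collagen and laminin genes that reach 0.2 CP10k in at least 1 class (rows) in the 12 classes of the brain with metastases (columns, with their number of cells); colour is log2 of the level in CP10k plus 0.1. The bright block at Col1a1, Col1a2, Col3a1, Col6a1, Col6a2, Col8a1 and Col12a1 lies in the fibroblast-like column. Col6a3 and Col5a3 are brightest in the tumour-like column. The immune columns are mostly dark. Brightest there is Col27a1 in microglia-like cells, followed by Lamb3 in NK, T and B cell-like cells and Col6a1 in neutrophil-like and T cell-like cells.

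The sequence before 1 annotated start is shown for 1 member led by each of 4 classes, so that the genes can be compared. RefSeq promoters of build GRCm38.p6 matched 37 of the 51 members, and the 250 bases before the start are given 5′ to 3′ on the coding strand. The Col6a3 window (led by the tumour-like class) is chr1:90843972-90844221 on the minus strand. The Col1a2 window (fibroblast-like) is chr6:4505368-4505617 on the plus strand. The Col13a1 window (endothelial-like) is chr10:61979109-61979358 on the minus strand, and the Col27a1 window (microglia-like) is chr4:63215162-63215411 on the plus strand. Except for Col1a2, the annotated gene begins further upstream than the start used. It begins at 90844001 for Col6a3, 61979206 for Col13a1 and 63214009 for Col27a1. The Col6a3 and Col13a1 windows thus overlap their gene in part, and the Col27a1 window lies inside it. Capitals mark matches, on either strand, to the TATA box (TATAAA), the CCAAT box, the GC box (GGGCGG) or the AP-1 motif (TGANTCA).
Col6a3: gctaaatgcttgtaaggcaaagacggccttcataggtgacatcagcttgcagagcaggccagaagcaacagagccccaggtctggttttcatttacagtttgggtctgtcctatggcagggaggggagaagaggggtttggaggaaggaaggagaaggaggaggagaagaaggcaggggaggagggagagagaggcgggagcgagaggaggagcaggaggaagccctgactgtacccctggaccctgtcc
Col1a2: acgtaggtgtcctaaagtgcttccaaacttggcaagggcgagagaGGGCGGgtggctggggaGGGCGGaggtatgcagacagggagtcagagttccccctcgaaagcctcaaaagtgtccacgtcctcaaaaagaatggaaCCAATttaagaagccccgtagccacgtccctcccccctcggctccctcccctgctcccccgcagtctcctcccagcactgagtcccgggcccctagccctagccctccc
Col13a1: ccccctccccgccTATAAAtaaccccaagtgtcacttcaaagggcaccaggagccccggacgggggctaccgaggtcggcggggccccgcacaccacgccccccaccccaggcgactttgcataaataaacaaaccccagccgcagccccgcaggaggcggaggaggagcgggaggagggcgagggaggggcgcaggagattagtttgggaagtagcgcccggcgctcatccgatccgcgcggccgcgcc
Col27a1: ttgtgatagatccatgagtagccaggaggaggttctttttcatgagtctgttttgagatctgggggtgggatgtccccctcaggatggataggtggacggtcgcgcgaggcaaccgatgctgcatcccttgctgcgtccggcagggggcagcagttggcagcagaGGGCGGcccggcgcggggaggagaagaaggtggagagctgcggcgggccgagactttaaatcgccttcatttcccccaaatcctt
The Col1a2 window held 2 GC boxes and 1 CCAAT box, the Col13a1 window 1 TATA box and the Col27a1 window 1 GC box, with no overlaps between motifs. The Col6a3 window held none of the 4 motifs. Over 32851 RefSeq promoter windows of this length, 12.4% held the TATA box, 33.8% the CCAAT box, 32.7% the GC box and 6.75% the AP-1 motif. Among the 37 members with a window, 5, 13, 22 and 1 held them, in that order. These matches are letters in a window and were not tied to a level.

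The chains of type I and III collagen, the main interstitial fibres, were highest in the fibroblast-like class. Col1a1 stood at 19.01 CP10k there against 0.659 in the next class, the tumour-like cells. Col1a2, the partner chain of Col1a1, stood at 22.8 CP10k in fibroblast-like cells and 0.863 in mural-like cells. Col3a1 stood at 9.08 CP10k in fibroblast-like and 0.801 in mural-like cells. A Col1a2 molecule was found in 99.2% of the 118 fibroblast-like cells (interval 95.4% to 99.98%) and in 49.5% of the mural-like cells (interval 42.6% to 56.4%). In T cell-like cells, which are not known to make it, the share was 1.07%, at a median corrected depth of 12875.5 molecules against 14942.5 in fibroblast-like cells.

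Of the other fibroblast-led members, Col5a2, Col11a1, Col12a1 and Col14a1 form or coat fibrils, while Col6a2 and Col8a1 belong to other structures. Col12a1, a collagen that sits on fibril surfaces, stood at 7.78 CP10k in fibroblast-like cells and at most 0.0715 CP10k in any other class. Col5a2, a chain of the type V collagen that starts fibrils, stood at 2.31 CP10k, and the minor fibrillar chain Col11a1 at 1.13 CP10k. Col14a1, another fibril-surface collagen, stood at 0.658 CP10k. Col8a1, a short-chain collagen that forms networks, stood at 5.73 CP10k in fibroblast-like cells, 1.37 in choroid or ependymal-like cells and 0.638 in mural-like cells. Its partner Col8a2 stood at 1.86 CP10k in fibroblast-like and 0.885 in choroid or ependymal-like cells, just under the 2-fold rule. The 51 members together summed to 99.4 CP10k in fibroblast-like cells, 21.6 in tumour-like, 19.7 in mural-like and 13.8 in endothelial-like cells. In immune classes the sum ran from 0.579 CP10k in dendritic-like to 1.45 in microglia-like cells.

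Type V collagen was split by chain between tumour-like and fibroblast-like cells. Col5a3 stood at 1.60 CP10k in tumour-like cells and at 0.166 in the next class, mural-like cells. Col5a1 stood at 1.11 CP10k in tumour-like and 0.612 in fibroblast-like cells. Col5a2 went the other way, with 0.00122 CP10k in tumour-like and 2.31 in fibroblast-like cells. A Col5a3 molecule was found in 87.3% of tumour-like cells (interval 85.2% to 89.1%), 8.47% of fibroblast-like cells and 1.73% of T cell-like cells. The median corrected depth of the tumour-like cells was 14158 molecules.

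The 3 main chains of type VI collagen, Col6a1, Col6a2 and Col6a3, which join into 1 beaded filament, also differed by class. Col6a1 stood at 8.94 CP10k in fibroblast-like and 5.40 in tumour-like cells, within 2-fold of each other. Col6a2 stood at 6.92 CP10k in fibroblast-like and 1.72 in tumour-like cells. Col6a3 stood at 0.606 CP10k in fibroblast-like and 3.40 in tumour-like cells, so the order of the classes was turned. Nearly all tumour-like cells held these chains: 98.6% had a Col6a1 molecule and 97.8% a Col6a3 molecule (interval 96.8% to 98.6%). In fibroblast-like cells the Col6a3 share was 35.6% (interval 26.996% to 44.9%). Of the 1145 tumour-like cells with Col6a1, 98.2% also had Col6a3, while of the 113 fibroblast-like cells with Col6a1, 36.3% did.

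Members of the tumour-like class were also at low levels in immune cells, as was Krt8, a keratin that marks the tumour-like cells. Col6a1 stood at 0.249 CP10k in T cell-like cells, with a molecule in 22.5% of them, and Krt8 stood there at 0.193 CP10k. The ratio of Col6a1 to Krt8 was 0.970 in tumour-like cells and ran from 1.23 to 1.79 over the 7 immune classes. The ratio of Col6a3 to Krt8 was 0.612 in tumour-like cells and ran from 0.409 in NK cell-like to 1.48 in microglia-like cells. The ratio of Col5a3 to Krt8 was 0.287 in tumour-like cells and ran from 0.103 in T cell-like to 0.650 in monocyte or macrophage-like cells, so the ratios differed between immune classes. In fibroblast-like cells the ratio of Col6a1 to Krt8 was 307, with Krt8 at 0.0291 CP10k. The part of free RNA or mixed droplets in the immune levels was not tested. The unnamed cluster led by mitochondrial genes (232 cells) had Col6a3 at 1.65 CP10k and Krt8 at 0.83 CP10k.

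Col1a1 in the tumour-like class came from few cells. Of 1161 tumour-like cells, 34 had any Col1a1 molecule, and 19 had 5 or more (1.64%, interval 0.988% to 2.54%). Those 19 cells held 98.4% of the 1084 Col1a1 molecules of the class, with up to 135 in 1 cell, and without them the level was 0.0105 CP10k. They lay in all 3 tumour clusters (5, 6 and 8 cells), all 19 had Krt8, and 1 of them had a Col1a2 molecule. In the 34 cells Col3a1 was also higher than in the other tumour-like cells, at 0.743 against 0.0689 CP10k, with a molecule in 13 of the 34. Among fibroblast-like cells with 5 or more Col1a1 molecules, all 97 of 97 had Col1a2. In the 34 tumour-like cells with Col1a1, Krt8 stood at 5.88 CP10k and Dcn, a fibroblast proteoglycan, at 0.103 CP10k, against 37.7 CP10k of Dcn in the fibroblast-like class. In the other tumour-like cells Dcn stood at 0.00125 CP10k and Col1a2 at 0.00313 CP10k, while Col1a2 stood at 0.289 CP10k in the 34. Both genes were thus higher in the 34 cells, but each was found in only 4 of them, with 5 molecules of Dcn and 14 of Col1a2. Lum, another fibroblast marker, stood at 0.00188 CP10k in the other tumour-like cells and had no molecule in the 34 cells. The part of fibroblast RNA in these cells was not tested. These cells were singled out after their values were seen. One of the 19 had a barcode listed in another matrix.

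Col4a1 and Col4a2, the 2 chains of the common type IV collagen of vessel basement membranes, were in every non-immune class. Their genes lie head to head on mouse chromosome 8, and the overlap shows how close they are. The starts used here were 11312826 on the minus strand for Col4a1 and 11312805 on the plus strand for Col4a2. The annotated Col4a1 gene reaches further, to 11312889, so the overlap of the whole genes is longer. From the starts used here, the first 22 bases of each are the same bases read in opposite directions. They are chr8:11312805-11312826, given on the plus strand with a GC box in capitals.
Col4a1 and Col4a2 overlap: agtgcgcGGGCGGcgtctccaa
Col4a1 stood at 4.30 CP10k in endothelial-like, 4.18 in mural-like, 2.47 in tumour-like and 2.37 in fibroblast-like cells. Col4a2 stood at 2.496, 2.70, 0.747 and 1.39 CP10k in the same order of classes. Neither gene was led by a class. Of the endothelial-like cells with Col4a2, 90.0% also had Col4a1, and of tumour-like cells with Col4a2, 98.0% did. Over all cells, Col4a1 was found in 456 of 526 endothelial-like and 1120 of 1161 tumour-like cells. In immune classes Col4a1 stood between 0.0371 CP10k in microglia-like and 0.183 CP10k in T cell-like cells. Col4a5 and Col4a6, chains of another type IV network that smooth muscle is known to hold, peaked in mural-like cells at 0.309 and 0.132 CP10k. Col4a3 and Col4a4 peaked in choroid or ependymal-like cells at 0.161 and 0.268 CP10k.

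Col18a1 and Col15a1, basement membrane collagens that carry sugar side chains, differed from each other. Col18a1 stood at 1.77 CP10k in tumour-like and 1.21 in mural-like cells, within 2-fold. Col15a1 stood at 0.352 CP10k in endothelial-like cells and 0.146 in microglia-like cells, and 0 of 1161 tumour-like cells had a molecule of it, which allows a share of up to 0.258%. Col16a1, a fibril-surface collagen, stood at 0.810 CP10k in fibroblast-like and 0.491 in tumour-like cells. Col7a1, which builds anchoring fibrils under epithelia, peaked in tumour-like cells at 0.305 CP10k. Col9a3, a cartilage-type fibril-surface chain, stood at 4.32 CP10k in choroid or ependymal-like cells and 0.0426 in tumour-like cells, the next class. It was found in 56.0% of the 84 choroid or ependymal-like cells (interval 44.7% to 66.8%).

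The laminin chains were spread over vessel-wall classes. Lamb2, a beta chain of vessel basement membranes, stood at 2.85 CP10k in mural-like, 2.38 in fibroblast-like and 1.79 in endothelial-like cells, against 0.136 in tumour-like cells. Lama4, the alpha chain typical of endothelium, stood at 0.647 CP10k in endothelial-like, 0.666 in mural-like and 0.821 in fibroblast-like cells. No Lama4 molecule was found in 1161 tumour-like cells, which allows a share of up to 0.258%. Lamc1, the common gamma chain, stood at 1.30 CP10k in mural-like, 0.922 in tumour-like, 0.647 in fibroblast-like and 0.612 in endothelial-like cells. Lama5 stood at 0.752, 0.442, 0.0291 and 0.521 CP10k in the same order. Lamc3, a gamma chain, stood at 0.638 CP10k in mural-like cells against 0.256 in fibroblast-like cells. Lama2 was highest in fibroblast-like cells (0.670 CP10k) and Lamb1 in choroid or ependymal-like cells (0.608 CP10k).

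The beta chain Lamb2 was found in few tumour-like cells, also among those that had the gamma chain Lamc1. Of 925 tumour-like cells with Lamc1, 18.4% had Lamb2. Among mural-like cells with Lamc1 the share with Lamb2 was 91.0%, among endothelial-like cells 81.3% and among fibroblast-like cells 93.1%. Over all cells of a class, Lamb2 was found in 210 of 1161 tumour-like and 170 of 214 mural-like cells. It was found in 376 of 526 endothelial-like and 105 of 118 fibroblast-like cells. The share in tumour-like cells with Lamc1 was thus close to that in all tumour-like cells. Lamb1 stood at 0.103 CP10k in tumour-like cells and 0.196 in endothelial-like cells.

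Set against the vascular compartment (endothelial-like, mural-like and fibroblast-like cells, 858 in all), the tumour-like cells had 18 measured members. The members Col6a3, Col5a3, Col5a1, Col6a1 and Col18a1, 5 in all, were at least 2-fold higher in tumour-like cells. That share was close to the 27.7% of all measured genes. Only Col6a3 and Col5a3 were so over each vascular class. Col6a1 stood lower in tumour-like than in fibroblast-like cells (5.40 and 8.94 CP10k). Col5a1 was within 2-fold of fibroblast-like cells (1.11 and 0.612 CP10k) and Col18a1 of mural-like cells (1.77 and 1.21 CP10k). A further 9 were at least 2-fold lower (background 29.7%), namely Col1a1, Col1a2, Col3a1, Col4a2, Col5a2, Col8a1, Col12a1, Lama4 and Lamb2. Of these, Col1a1, Col1a2, Col3a1, Col5a2, Col8a1 and Col12a1 were led by the fibroblast-like part of the compartment. Col1a1 stood higher in tumour-like cells (0.659 CP10k) than in endothelial-like (0.0131) and mural-like cells (0.111). Col12a1 stood at 0.00304, 0.00146 and 0.0139 CP10k in the same order. The remaining members of the 9 were lower in tumour-like cells than in each of the vascular classes. The other 4, Col4a1, Col6a2, Lama5 and Lamc1, were within 2-fold. The median log2 ratio over the 18 members was -1.11, against 0.15 over all genes. Col6a3 had the highest log2 ratio at 3.51 and Col1a2 the lowest at -5.08. Against the 3264 immune cells, 10 of 10 measured members were at least 2-fold higher in tumour-like cells (background 37.4%), and 15 of 15 were so in vascular cells (22.8%). No member was measured in the immune cells, where the highest, Col27a1, stood at 0.169 CP10k. A member measured in tumour-like or vascular cells was thus bound to be at least 2-fold higher there, so both counts follow from the rule. Background genes could also be measured through immune cells, so these counts cannot be weighed against the backgrounds.

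**Figure D2:**
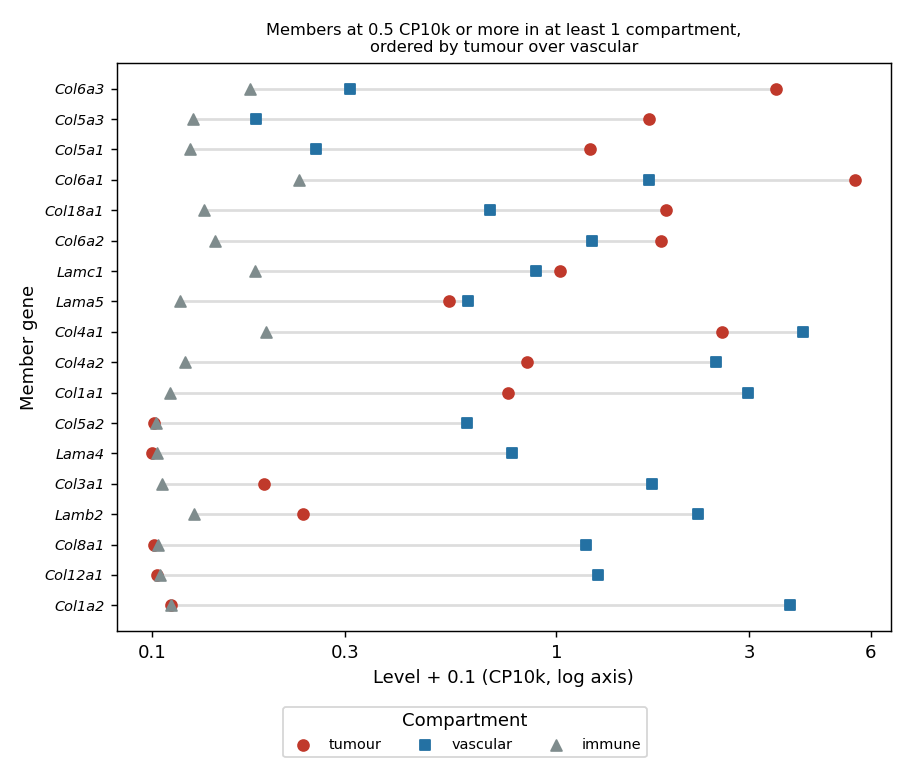
Level plus 0.1, in CP10k on a log axis, of the 18 members at 0.5 CP10k or more in the tumour-like (circles), vascular (squares) or immune (triangles) compartment of the brain with metastases, ordered by tumour-like over vascular. Tumour-like cells lie to the right of vascular cells for Col6a3, Col5a3, Col5a1, Col6a1, Col18a1, Col6a2 and Lamc1, and the immune symbols are at the left end of each line or beside the tumour-like symbol.

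Within the endothelial-like class, type IV, XIII and XV collagen were highest in 1 of 3 clusters. That cluster, numbered 7 (111 cells), was led by Plvap, Igfbp3, Emcn, Esm1 and Kdr, and its Cldn5, a tight junction gene of brain endothelium, stood at 1.30 CP10k against 42.8 CP10k in the class as a whole. Cluster 9 (185 cells) was led by Ackr1 and Vwf, and cluster 26 (230 cells) by Spock2, Slco1c1 and Cldn5. Col4a1 stood at 10.0 CP10k in cluster 7, 2.17 in cluster 9 and 3.34 in cluster 26. Col4a2 stood at 5.80, 1.22 and 1.98 CP10k in the same clusters. Col13a1, a collagen that spans the cell membrane, stood at 3.15 CP10k in cluster 7 and 0.0274 in cluster 26. Col15a1 stood at 1.56 CP10k in cluster 7 and 0.0479 in cluster 9.

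Laminin chains were part of the same difference. Lama4 stood at 1.17 CP10k in cluster 7 against 0.522 in cluster 9, and Lamb1 at 0.681 against 0.136. Lamb2 was nearly level over the 3 clusters, from 1.56 to 1.87 CP10k. Cluster 9 held Col6a6, a less common type VI chain, at 0.738 CP10k, against 0.00686 in cluster 26. In all, 7 of 11 members measured in these clusters were led by 1 of them (background 8.73%), 6 by cluster 7 (4.58%) and 1 by cluster 9 (2.23%). Shared barcodes made up 4.50% of cluster 7.

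The mural-like class held 2 clusters with different members. Cluster 10 (66 cells) was led by Acta2, Tagln and Myh11, genes of smooth muscle, and cluster 12 (148 cells) by Vtn and Rgs5, genes of pericytes. Cluster 12 also had 10 of 10 endothelial markers at a summed 119 CP10k, against 1.88 CP10k in cluster 10, and the part of endothelial RNA in its values was not tested. Col18a1 stood at 2.47 CP10k in cluster 10 and 0.607 in cluster 12. Col1a2, Col3a1 and Col8a1 stood at 1.70, 1.81 and 1.37 CP10k in cluster 10 against 0.470, 0.322 and 0.291 in cluster 12. Lama5 stood at 1.34 CP10k in cluster 10 and 0.475 in cluster 12, and Col4a5 at 0.572 and 0.184. In the other direction, Lamc3 stood at 0.878 CP10k in cluster 12 and 0.130 in cluster 10, Lama2 at 0.5003 with no molecule in cluster 10, and Col6a1 at 0.556 and 0.130. Col6a1 was also high in tumour-like cells, whose markers summed to 1.61 CP10k in cluster 12 and 0.173 in cluster 10, and their part was not tested. Of 14 measured members, 9 were led by 1 cluster (background 27.7%).

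The 3 tumour-like clusters were alike in these genes, as they were in most measured genes. Cluster 0 (343 cells) was led by Sox9 and Adm, cluster 8 (431 cells) by genes of mitosis such as Cenpf and Ube2c, and cluster 19 (387 cells) by Esx1, Wfdc2 and Rhox5. None of 12 measured members was led by 1 of them, which is near the background of 1.88% and so is not particular to the members. Col5a3 stood at 2.16, 1.51 and 1.21 CP10k in clusters 0, 8 and 19. Col6a3 stood at 3.92, 3.62 and 2.70 CP10k, and Col6a1 at 5.32, 5.85 and 4.95 CP10k. Col18a1 stood at 2.02, 1.81 and 1.498 CP10k.

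**Figure D3:**
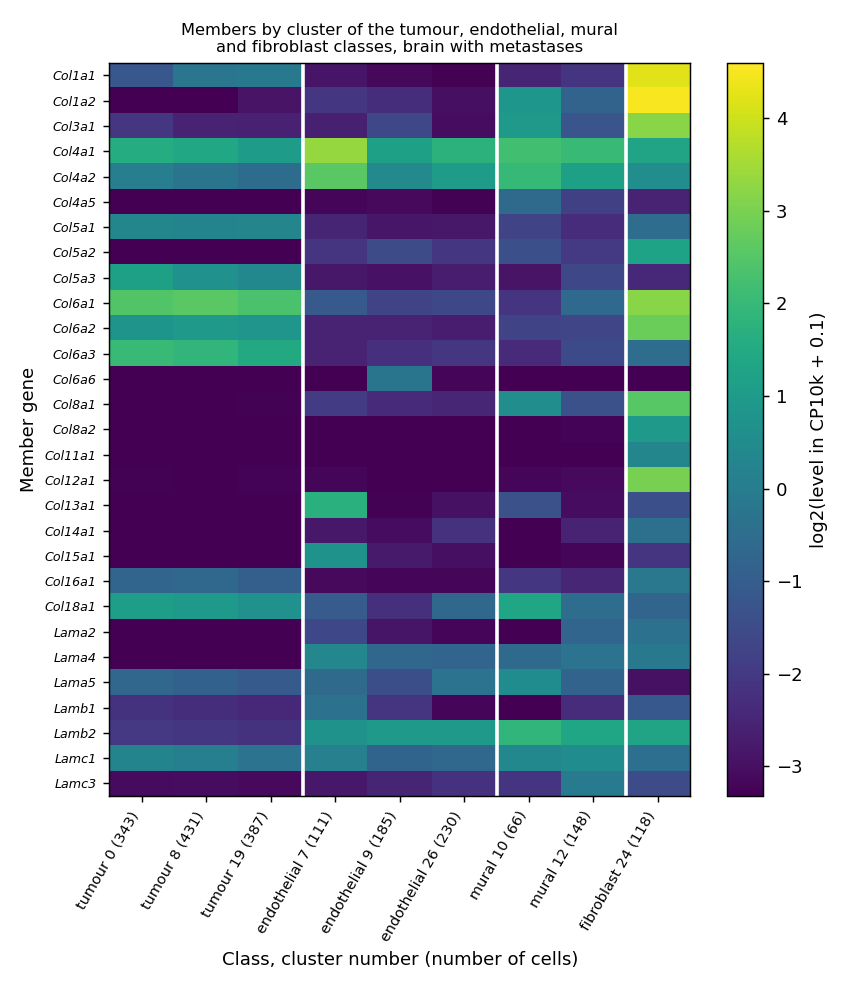
Level of 29 members at 0.5 CP10k or more in at least 1 cluster of the tumour-like, endothelial-like, mural-like and fibroblast-like classes; columns give the class, the cluster number and the number of cells, and colour is log2 of the level in CP10k plus 0.1. The 3 tumour-like columns look alike, while Col4a1, Col4a2, Col13a1 and Col15a1 are brightest in endothelial-like cluster 7, Col6a6 in cluster 9, and Col18a1 and Lama5 in mural-like cluster 10.

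Among immune cells, Col27a1 and Col15a1 were highest in microglia-like cells and Lamb3 in lymphocytes. Col27a1, a fibrillar collagen best known from cartilage, stood at 0.640 CP10k in microglia-like cells, 0.147 in B cell-like and 0.0431 in monocyte or macrophage-like cells. It was found in 49.9% of microglia-like cells (interval 46.2% to 53.7%, median corrected depth 14429 molecules) and in 1.60% of T cell-like cells. Col15a1 stood between 0.130 and 0.1503 CP10k in microglia-like clusters 4, 17 and 25 (0.0231 in cluster 17 without shared barcodes), and at 0.164 in microglia-like cluster 0 of the naive brain, against 0.110 in its mixed cluster 2. For Col27a1 the 3 microglia-like clusters lay between 0.64 and 0.66 CP10k, and Krt8 in this class was at 0.0474 CP10k. Microglia-like clusters 17 and 25 also met 9 of 10 T cell and 6 of 9 neutrophil markers, and 56.3% and 68.7% of their cells had shared barcodes; the part of this in the values was not tested.

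Lamb3, the beta chain of the laminin that anchors epithelia, was highest in lymphocytes. It stood at 0.363 CP10k in NK cell-like, 0.241 in T cell-like and 0.209 in B cell-like cells, all under the 0.5 CP10k rule, and at 0.000608 CP10k in tumour-like cells. A molecule was found in 31.7% of NK cell-like cells (interval 26.7% to 36.9%), 20.4% of T cell-like cells (17.6% to 23.5%) and 0.0861% of tumour-like cells. The median corrected depths were 12912, 12875.5 and 14158 molecules, which do not show how deeply the classes were sequenced. Lama3, a laminin alpha chain, was found in 0 of 338 NK cell-like cells, which allows a share of up to 0.888%. In the naive brain Lamb3 stood at 0.658 CP10k in NK cell-like cluster 5 and 0.338 in T cell-like cluster 1, and in blood at 0.524 CP10k in B cell-like cluster 4 and 0.331 in T cell-like cluster 5.

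In the naive brain, by the authors' clusters, 23 members were measured and 19 were led by 1 cluster, where 33.8% of all measured genes were. Cluster 8 (44 cells, led by Plvap, Igfbp3 and Esm1, endothelial-like, Cldn5 at 0.352 CP10k) led 7 members (background 7.34%): Col4a1, Col4a2, Col13a1, Col15a1, Lama3, Lama4 and Lamb1. Col4a1 stood there at 11.5 CP10k, Col4a2 at 6.63, Col13a1 at 4.78 and Col15a1 at 1.85. These are the members that led in endothelial-like cluster 7 of the brain with metastases, with Lama3 (1.20 CP10k) added. The authors could cluster on the members, so these levels are a description.

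Cluster 2 of the naive brain (479 cells) was mixed, with 9 of 10 endothelial, 9 of 12 mural and 5 of 10 fibroblast markers at 2-fold over other cells, and Ttr of the choroid plexus among its leading genes. It led Col1a1 (1.25 CP10k), Col1a2 (2.24), Col3a1 (0.626), Col8a1 (0.622) and Col12a1 (0.615), where 1.99% of all measured genes were led by it. Its cells had a median of 2436 raw molecules and 1150 genes, which the correction raised to 8618 molecules and 2084 genes. Microglia-like cluster 0 led Col27a1 (background 2.13%), at 0.769 CP10k and in 45.9% of 820 cells (interval 42.4% to 49.3%).

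Cells with the tumour-like pattern were also listed in the naive brain and in blood. The labels used here do not say whether the mice that gave blood carried metastases. Naive cluster 6 (111 cells, Krt8 at 6.56 CP10k) led Col5a1, Col5a3, Col6a1, Col6a2, Col6a3 and Col18a1 (background 17.1%). Col6a1 stood there at 6.64 CP10k, Col6a3 at 4.09 and Col5a3 at 1.91. Blood cluster 6 (180 cells, Krt8 at 6.22 CP10k) led the same 6 genes with Col4a1, Col4a2 and Lamc1 (background 14.9%), with Col6a1 at 6.52 CP10k, Col6a3 at 3.86 and Col5a3 at 1.85. Of these cells 72.1% in naive brain and 83.9% in blood had a barcode that another matrix also listed, and their median raw molecule counts were 157758 and 160798. Without the shared barcodes the summed member level was 28.5 CP10k in naive cluster 6 and 18.8 in blood cluster 6, against 25.2 and 22.9 with them.

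Blood held 16 measured members, of which 14 were led by 1 cluster (background 37.2%). Cluster 7 (19 cells, choroid or ependymal-like) led Col8a1 (1.12 CP10k), Col8a2 (1.20) and Col9a3 (4.89), with a background of 10.4%. These 3 genes stood at 1.37, 0.885 and 4.32 CP10k in the choroid or ependymal-like class of the brain with metastases. Cluster 2 of blood (468 cells, 82.7% shared barcodes) had 10 of 10 microglia and 8 of 10 endothelial markers and led Col1a1 (0.998 CP10k) and Col12a1 (0.543), with a background of 3.57%. The levels in neutrophil-like, monocyte-like and B cell-like clusters of blood summed to between 0.777 and 1.71 CP10k.

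**Figure D4:**
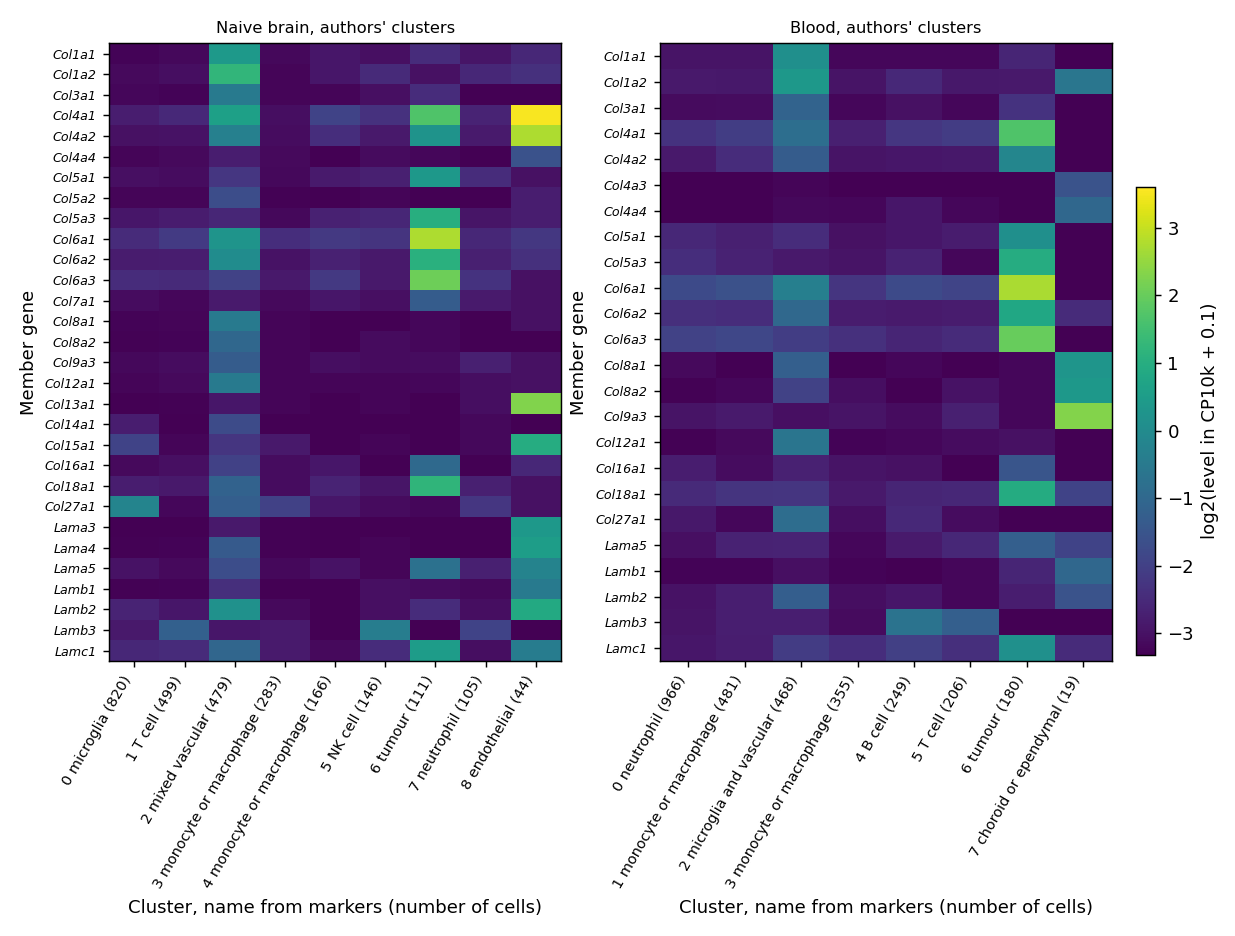
Level of the members at 0.2 CP10k or more in at least 1 of the authors' clusters, 30 in naive brain (left) and 24 in blood (right); columns give the cluster number, its name from markers and its number of cells, and colour is log2 of the level in CP10k plus 0.1. Naive cluster 8 is bright at Col4a1, Col4a2 and Col13a1, cluster 6 of both tissues at Col6a1 and Col6a3, and blood cluster 7 at Col9a3.

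Between the labelled arms, the question was whether matrix genes differ after microglia depletion. Cx3cr1 stood at 1.72 CP10k in microglia-like cluster 0 of the naive sample labelled control and at 10.0 CP10k in the one labelled depleted, and that cluster made up 17.1% and 36.7% of the cells, so these values go against the labels. In the naive brain the summed member level was 7.17 CP10k in the 785 cells labelled control and 4.49 CP10k in the 1868 cells labelled depleted, a log2 ratio of -0.66. Col4a1 stood at 1.15 and 0.418 CP10k, and Col4a2 at 0.581 and 0.193. Of 4 members measured over all cells, 2 were at least 2-fold lower in the sample labelled depleted (background 5.51%) and 0 higher (1.04%). Fewer cells of a type and less RNA per cell are mixed in such sums.

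The share of the vessel clusters differed in the same direction. Mixed cluster 2 made up 24.7% of the cells labelled control (interval 21.7% to 27.9%) and 15.3% of those labelled depleted (13.7% to 16.97%). Endothelial-like cluster 8 made up 3.95% (2.70% to 5.56%) and 0.696% (0.371% to 1.19%). Within cluster 2 the summed level was 16.9 CP10k in the control-labelled cells and 13.5 in the depleted-labelled ones. There 1 of 11 measured members, Col9a3, was at least 2-fold lower under the depleted label (background 1.64%) and 0 were higher (0.661%). The 6 choroid or ependymal markers of that cluster summed to 196 and 51.7 CP10k, and the median raw molecule counts were 4575 and 1888. Their part in the result was not tested. Col1a2 stood at 2.23 and 2.25 CP10k and Col1a1 at 1.15 and 1.32 in the same cluster.

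In cluster 8 the summed level was 36.1 CP10k in 31 cells labelled control and 23.4 in 13 cells labelled depleted. Col4a1 stood at 13.3 and 7.03 CP10k, Col13a1 at 5.41 and 3.23, and Lama4 at 1.32 and 1.37. None of its 10 measured members passed 2-fold in either direction (background 7.36% higher and 7.83% lower). Without shared barcodes Col4a1 stood at 13.7 and 6.47 CP10k and did pass it. The endothelial markers of cluster 8 summed to 142.5 CP10k in its control-labelled and 106 in its depleted-labelled cells, the mural markers to 7.36 and 2.02 (1 and 8 of 12 at 0), and the choroid or ependymal markers to 2.01 and 14.1. Their part in the values was not tested. In tumour-like cluster 6 the sums were 27.3 and 24.6 CP10k with all cells and 24.8 and 29.4 without shared barcodes, where 6 and 25 cells were left. Col27a1 in microglia-like cluster 0 stood at 0.844 and 0.755 CP10k.

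In blood the summed level was 4.03 CP10k in control-labelled and 4.59 in depleted-labelled cells, a log2 ratio of 0.18. Without the shared barcodes it was 2.62 and 1.80 CP10k, a log2 ratio of -0.51, so the order turned. In cluster 2 of blood the sums were 5.60 and 10.1 CP10k with all cells, and 14.05 and 10.6 without the shared barcodes. With all cells 5 of its 8 measured members were at least 2-fold higher under the depleted label (background 0.732%), and without the shared barcodes 0 of 7 were higher (background 4.46%) and 3 were lower (4.73%). Its 10 fibroblast markers summed to 6.12 and 17.2 CP10k with all cells.

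**Figure D5:**
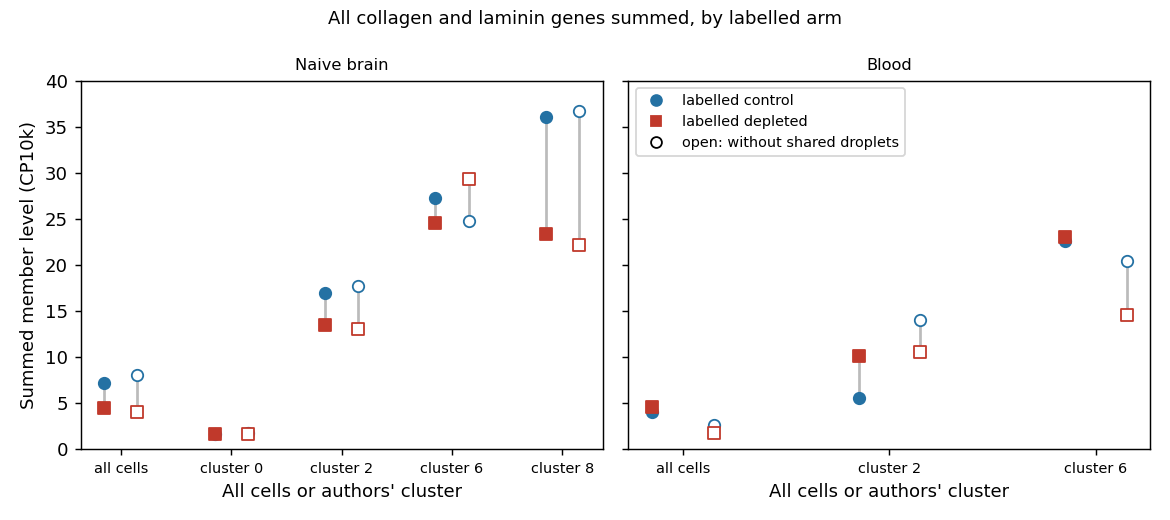
Summed level of all collagen and laminin genes in CP10k for the sample labelled control (circles) and the sample labelled depleted (squares), over all cells and in authors' clusters of naive brain and blood; open symbols leave out barcodes listed in more than 1 matrix, each symbol is 1 hashed sample, and there are no error bars. In the naive brain the control label is higher over all cells and in clusters 2 and 8, and in blood the order over all cells and in cluster 2 turns when shared barcodes are left out.

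Genes that fold, modify and cross-link collagen were given from a list of 27, of which 21 were measured and 5 were led by a class (background for any class 27.4%). Tumour-like and fibroblast-like cells both held Serpinh1, the collagen chaperone, at 10.8 and 8.76 CP10k, and Pcolce, which speeds the trimming of procollagen, at 4.13 and 7.31 CP10k. Colgalt1, which adds galactose to collagen, was led by tumour-like cells at 2.72 CP10k. The cross-linking enzymes Lox and Loxl1 were led by fibroblast-like cells at 5.30 and 1.86 CP10k, with 0.00243 CP10k of each in tumour-like cells. Sparc, a collagen-binding protein on this list and also a microglia marker, stood at 29.4 CP10k in microglia-like, 19.5 in fibroblast-like and 10.8 in endothelial-like cells.

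Of 12 partners in the basement membrane 11 were measured and 5 were led by a class (background 27.4%). Fbln1, among those led, is also a marker used to name the fibroblast-like class, so its lead there is partly built in. Hspg2, the proteoglycan perlecan, stood at 1.58 CP10k in tumour-like and 1.49 in endothelial-like cells, and Nid1, which links laminin to type IV collagen, at 1.89 CP10k in fibroblast-like cells, 0.454 in tumour-like and 0.551 in endothelial-like cells. Pxdn, which cross-links type IV collagen, was led by tumour-like cells at 1.74 CP10k. Ntn4, a laminin-related protein, was led by mural-like cells at 2.90 CP10k. Of 17 interstitial matrix partners 15 were measured and 12 were led by a class (background 27.4%). Fibroblast-like cells led 10 of them (background 3.95%), among them Mgp (174 CP10k), Dcn (37.7) and Bgn (14.7). Mgp, Dcn and Lum of this list are also markers used to name the fibroblast-like class, so their lead there is partly built in. Fn1, fibronectin, stood at 11.8 CP10k in fibroblast-like, 7.71 in endothelial-like and 0.0310 in tumour-like cells.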

How the data were processed

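The 3 matrices of 1 RNA library were used. Per the submitters' processing notes, Cell Ranger 3.1, Seurat 3.1.1 and build mm10 were used. The authors deposited natural log values, and back-transformed values were whole in all cells (tolerance 1e-06), so they are the natural log of 1 plus a depth-corrected molecule count, corrected per matrix. The correction adds molecules to shallow cells and takes them from deep ones. The authors' annotation tables gave clusters, labelled arms and other columns: 17 of 89 columns were used and 72 were not. The antibody and hashtag libraries were not used here.

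Levels are summed corrected counts per 10000 (CP10k), with a pseudocount of 0.1 CP10k in ratios. The brain with metastases was clustered in Python 3.11.15 with scanpy 1.11.5 (2000 variable genes without members, 30 components, 20 neighbours, Leiden resolution 1.0). A cluster was named where at least 3 fixed markers reached 0.5 CP10k and 2-fold over other cells, unless another type had more markers among the top 10 genes. No doublet caller was run. No class or cluster comparison was tested, because cells are not replicates. The rule for leading classes was tested on simulated data. The members, marker lists and rules were chosen with earlier results of these data known. Members may be named, those at 0.5 CP10k or more with values, 1 member is not reported here, and pathway genes only from fixed lists. Genes that head a cluster were named after their values were seen. Alternatives covered shared barcodes, cell weights, mixed cells, clustering, thresholds and thinned depth.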

Additional observations from a re-analysis of the deposited data

Results flagged for a closer look

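The summed level of the collagen and laminin genes differed in direction between tissues. In the naive brain the log2 ratio of the sample labelled depleted over the one labelled control was -0.66, and in blood it was 0.18. Each tissue had 1 sample per label and its own matrix, and the difference between the 2 tissues was not tested. Without shared barcodes both ratios were below 0, at -0.95 in naive brain and -0.51 in blood.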

How the results depend on the processing

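Of the alternative values, 52 were labelled as close, 18 as moved and 1 as reversed. The close label also took in a rise from 19 to 28 led members of the naive brain at 0.1 CP10k. At 3-fold that count was 17. The 15 members led by a class became 12 to 21, and the members led in both kept the same leading class under every alternative run. The endothelial-like class led 1 member, and 0 when shared barcodes were left out, when each cell weighed the same and at 3-fold, and 2 at 0.1 CP10k. The mural-like class led 1, and 0 when each cell weighed the same, at Leiden resolution 2.0 and at 3-fold. In blood 14 led members became 23 at 0.1 CP10k. Thinning to 2000 molecules lowered shares of cells: Col4a1 in endothelial-like cells 86.7% to 45.8%, Col1a2 in fibroblast-like 99.2% to 87.3%, Col6a1 in tumour-like 98.6% to 62.4%, Col27a1 in microglia-like 49.9% to 11.5% and Lamb3 in NK cell-like 31.7% to 5.92%. At least 2 molecules gave 74.9% for Col4a1, 95.5% for Col6a1, 22.5% for Col27a1 and 11.2% for Lamb3. The blood arm ratio of 0.18 was -0.51 without shared barcodes and 0.84 within cluster 2, and the cause was not tested. No paired analysis was possible because the 3 libraries are of 1 pool and no group has replicates.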

Other observations

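Receptors of these matrix proteins were led by different classes, and most of the led enzymes and inhibitors by fibroblast-like cells. Of 20 collagen and laminin receptors 14 were measured and 5 were led by a class (background 27.4%). Itgb1, the integrin beta chain shared by most collagen and laminin receptors, stood at 7.74 CP10k in mural-like, 4.66 in NK cell-like and 3.38 in tumour-like cells. Itga6, a laminin-binding integrin chain, stood at 2.62 CP10k in endothelial-like, 1.95 in tumour-like and 1.93 in microglia-like cells. Itga1, a collagen-binding chain, stood at 4.49 CP10k in mural-like and 3.603 in endothelial-like cells and 0.00426 in tumour-like cells. Bcam, a laminin receptor, stood at 3.36 and 2.60 CP10k in the same first 2 classes. Lair1, an inhibitory collagen receptor of leukocytes, was led by microglia-like cells at 4.28 CP10k, and Sdc1 by tumour-like cells at 2.28 CP10k.

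Of 18 listed matrix-degrading enzymes and inhibitors 11 were measured and 7 were led by a class (background 27.4%). Neutrophil-like cells led Mmp9, a gelatinase, at 9.40 CP10k and Mmp8, a collagenase of neutrophils, at 6.96 CP10k. Mmp8 is also a marker used to name the neutrophil-like class, so its lead there is partly built in. Fibroblast-like cells led Timp1, an inhibitor of these enzymes, at 26.4 CP10k, Mmp3 at 5.30 and Ctsk, a collagen-cleaving cathepsin, at 2.11. Timp3, an inhibitor bound to the matrix, stood at 9.14 CP10k in mural-like, 7.57 in endothelial-like and 0.00852 in tumour-like cells.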
